A study of Nothobranchius furzeri with 25 samples.

Results

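Adult ageing was followed here as the difference between whole brains of Nothobranchius furzeri, the turquoise killifish, at 12 weeks (young adults) and at 39 weeks (old fish). The 10 libraries of these ages, 5 from each, were taken from a series of 25, in which 5, 20 and 27 weeks supplied the other 15. All fish were untreated males of MZM-04/10, a strain derived from the wild and kept in captivity, and each library came from the brain of 1 animal. The study's methods state that the fish were fasted and killed at 10 in the morning. Titles of 6 of the 25 libraries, 2 at 12 weeks (JM105 and JM107) and 1 at 39 weeks (JM12) among them, carry the mark w0w1, which no source explains.

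The killifish lives for less than a year in captivity and keeps growing new neurons as an adult, so that the span from young adult to old fish is short. In the ageing vertebrate brain, glial and immune transcripts commonly become more abundant and many neuronal transcripts less so. The circadian clock is a loop in which ARNTL proteins (BMAL) activate repressors of their own action, among them BHLHE41 and CIART. In whole brain, fewer cells of a type and less RNA per cell cannot be told apart.

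Counts per transcript contig were deposited by the authors, with totals of 15690560 to 26378519 at 12 weeks and 15877033 to 23985244 at 39 weeks. Of 18228 contigs, 16484 passed the filter on low counts and were tested with the quasi-likelihood test of edgeR in 1 model of all 5 ages, as 39 minus 12 weeks. Levels are counts scaled to the normalized library (CPM), given as mean ± SD (n = 5 per age), fold changes are on the log2 scale with their standard error (SE), and a gene was called at a Benjamini-Hochberg adjusted p under 0.05. A name could be given to 1905 of the genes tested, all between A and C1QL4 in the alphabet, so that families outside this stretch are not described. Copies marked as 1 of several may share reads and are uncertain to that extent. Neuronal markers were well expressed, and glial markers varied in level. The neuronal markers ATP1A3A, ATP1A3B, BASP1 and AMPH summed to 3306 to 4301 CPM at 12 weeks and 2528 to 3292 CPM at 39 weeks, without overlap (log2 ratio of the means -0.31, exact permutation test, two-sided, p = 0.0079, the smallest that 5 against 5 can give, adjusted p = 0.036 over 9 marker sums). Without ATP1A3B, the most abundant of the 4, the sum was 1540 to 2004 CPM and 1338 to 1670 CPM (exact permutation test, p = 0.079). AQP4, ALDH1L1, ATP1A2A and BCAN, taken as astroglial markers, summed to 341 to 458 CPM and 282 to 456 CPM. ASPA of oligodendrocytes had 41.3 to 69.3 CPM and 42 to 83.6 CPM, and both overlapped between the ages. AQP4, a water channel, was low in all 10 libraries, at 2.58 to 4.03 CPM, as was ATP1A2A, at 1.51 to 5.37 CPM. The paper describes the brains of teleosts as lacking astroglia.

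Of the 16484 genes, 958 were higher (5.81%) and 1121 lower (6.80%) at 39 weeks, 12.6% together. Most of the changes were small. The median log2 fold change was 0.41 among genes called higher and -0.46 among genes called lower. Only 66 of the higher and 95 of the lower genes differed by 2-fold or more, and 756 and 762 differed by less than 1.5-fold. The 5 libraries of one age did not overlap the 5 of the other in 1460 genes (8.86%), of which 1120 were called. Over all genes the median log2 fold change was 0.01 with quartiles of -0.18 and 0.17. Among genes with a name, 78 of 1905 were called higher (4.09%) and 121 lower (6.35%).

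The counts depended on single libraries. Without JM12 edgeR called 444 genes higher and 541 lower, without JM104 it called 459 and 528, and without JM1 483 and 561, whereas without JM13 it called 1260 and 1375. Leaving out the 6 marked libraries left 3 brains of 12 weeks and 4 of 39 weeks and 151 and 231 calls. All 2079 genes called kept their direction there, and 343 of them were still called. With the mark as a factor in the model 1911 of the 2079 were called again. DESeq2 called 15.6% of the genes, and edgeR called 11.4% of the gene models of a later table of the same libraries.

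**Figure D1:**
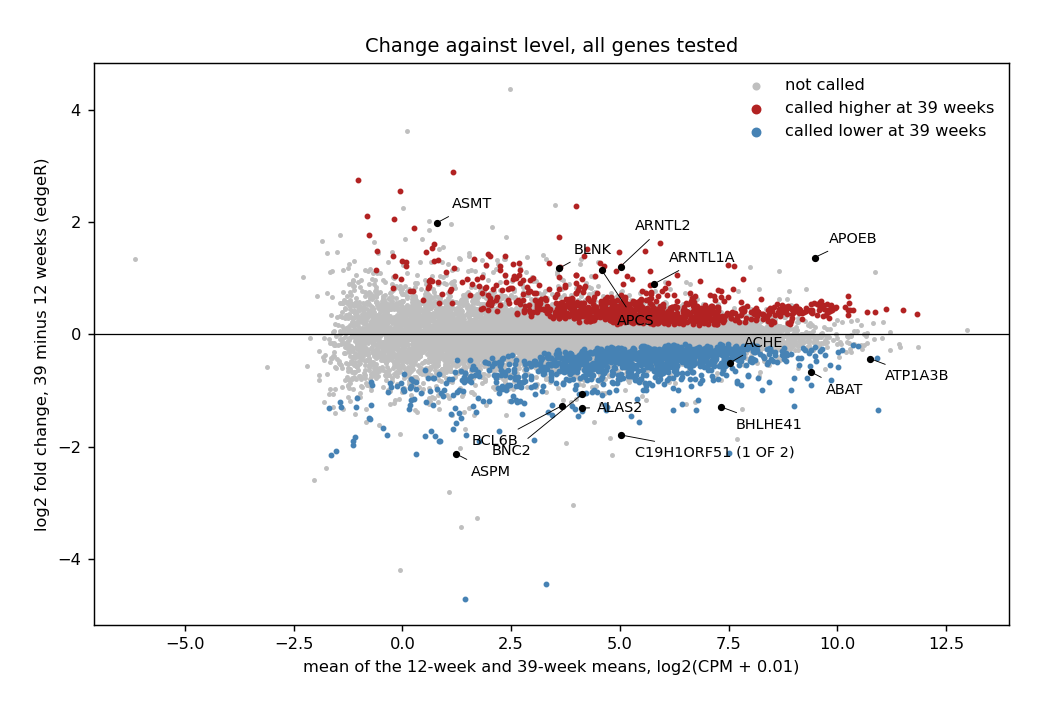
Log2 fold change at 39 minus 12 weeks (y axis) against the mean level, as log2 of CPM plus 0.01 (x axis), for the 16484 genes tested. Red points are the 958 genes called higher, blue points the 1121 called lower, grey points the rest. Most coloured points lie within 1 log2 unit of 0, with APOEB, ASMT, ASPM and C19H1ORF51 (1 OF 2) farther out.

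Among the genes with a name, the 3 with the smallest p-values, ALCAMB, ABAT and ACHE, were lower at 39 weeks. Genes without a name lay between them in the order of p. ALCAMB, a copy of the cell adhesion molecule ALCAM that guides growing axons, had 49.5, 53.8, 46.5, 53.7 and 46.5 CPM at 12 weeks (JM104, JM105, JM107, JM109 and JM113) and 29.6, 32.8, 34.9, 30.8 and 36.2 CPM at 39 weeks (JM1, JM12, JM13, JM15 and JM18), an order kept throughout. The lowest young brain lay above the highest old brain. The log2 fold change was -0.60 (SE 0.08, adjusted p = 0.0006 from edgeR).

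ABAT, the transaminase that breaks down the inhibitory transmitter GABA, had 839, 852, 783, 884 and 789 CPM at 12 weeks and 659, 501, 495, 484 and 467 CPM at 39 weeks. Among the old brains JM1 stood above the other 4, yet below every young brain. The log2 fold change was -0.67 (SE 0.10, adjusted p = 0.0011 from edgeR). ACHE, the acetylcholinesterase that ends cholinergic transmission, had 202, 228, 239, 205 and 206 CPM at 12 weeks and 171, 140, 150, 127 and 169 CPM at 39 weeks. The ages did not overlap here either, with a log2 fold change of -0.51 (SE 0.08, adjusted p = 0.0015 from edgeR). At 20 and 27 weeks ABAT averaged 636 and 560 CPM and ACHE 194 and 163 CPM, values between those of 12 and 39 weeks. At 5 weeks ABAT averaged 542 CPM, close to 39 weeks (521 CPM) and below 12 weeks (829 CPM). ACHE averaged 200 CPM at 5 weeks and 216 CPM at 12 weeks.

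Others with a name among the smallest p-values without overlap between the ages were AFAP1, an adaptor of actin filaments, which fell from 49.2 ± 4.46 to 36.1 ± 4.30 CPM, and ATRN (attractin), which fell from 222 ± 9.05 to 179 ± 13.9 CPM. B3GALTL (1 OF 2), a glycosyltransferase that extends O-linked fucose, fell from 20.5 ± 1.43 to 15.5 ± 1.16 CPM. Leaving out any single library kept the calls of all these genes. Without the 6 marked libraries ALCAMB, ABAT, ACHE, AFAP1 and B3GALTL (1 OF 2) were still called, at adjusted p of 0.014 to 0.033 from edgeR, and ATRN was not (0.069).

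Transcription factors of the BCL11 family were lower in the old brains. They are zinc finger proteins that, in mammals, set the identity and the axon paths of cortical and striatal neurons. All 4 family members with a name were called lower, among 5 of 19 genes of the list of neurogenic and neuronal fate factors, with none higher, against 6.80% of all genes called lower. The list's median log2 fold change was -0.13 against 0.01 for all genes.

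BCL11AA had 249, 229, 232, 245 and 224 CPM at 12 weeks and 166, 176, 196, 171 and 200 CPM at 39 weeks. BCL11B (2 OF 2) had 38.7, 34.3, 23.6, 31.7 and 23.5 CPM at 12 weeks and 18.9, 21.2, 20.4, 14.5 and 19.7 CPM at 39 weeks. In both genes every old brain lay below every young one, and in BCL11B (2 OF 2) JM107 and JM113, lowest among the young, came close to the old. The log2 fold change was -0.38 for BCL11AA (SE 0.08, adjusted p = 0.0043 from edgeR) and -0.68 for BCL11B (2 OF 2) (SE 0.16, adjusted p = 0.0085).

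The copy BCL11AB fell from 23.9 ± 2.75 to 15.8 ± 2.31 CPM, and BCL11BA from 168 ± 15.8 to 136 ± 15.8 CPM (adjusted p = 0.034 from edgeR). BCL11BA overlapped. Its call ended without JM104, JM105, JM107, JM1 or JM15 (up to 0.099) or the marked libraries (0.16), and in a model of only the 10 libraries. Also without overlap was BNC2 (basonuclin), a zinc finger protein outside this family and the only other gene of the list called. It had 31.7, 23, 18, 24.1 and 22 CPM at 12 weeks and 9.31, 11.2, 15, 10 and 11.6 CPM at 39 weeks. Its log2 fold change was -1.06 (SE 0.22, adjusted p = 0.0052 from edgeR), the largest on the list among genes called. Whether neurons or other cells carried the BNC2 transcripts was not tested.

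Proneural factors on the same list did not pass the test, but were low in level, with SE of 0.30 to 0.68. ASCL1A, which starts neurogenesis in dividing progenitors, had a mean of 4.51 CPM at 12 weeks and 3.79 CPM at 39 weeks (adjusted p = 0.71 from edgeR). ASCL1B had 6.06 and 5.46 CPM (0.82), ATOH1C 2.00 and 1.31 CPM (0.43), and ATOH1A 0.439 and 1.14 CPM (0.21). BARHL1, another member of the list, had 57.5 and 63.6 CPM and was not called (adjusted p = 0.38). The calls of BCL11AA, BCL11AB, BCL11B (2 OF 2) and BNC2 held in each of the 19 settings run for single genes, the removal of any 1 library and of the 6 marked ones included.

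Ankyrins anchor ion channels and adhesion proteins to the spectrin skeleton, at the axon initial segment and the nodes of Ranvier in neurons. All 7 ankyrin genes with a name had a fold change below 0, as had 8049 of the 16484 genes tested. Of the 7, 4 were called lower, against 6.80% of all genes, with a median of -0.55. The other 3 were not called. ANK1 averaged 115 CPM at 12 weeks and 113 CPM at 39 weeks (adjusted p = 0.9 from edgeR). ANK2 averaged 234 and 206 CPM (0.38) and ANK3A 75.7 and 48.8 CPM (0.11). ANK2 (1 OF 2) had 152, 145, 131, 123 and 123 CPM at 12 weeks and 101, 108, 108, 101 and 106 CPM at 39 weeks. Old brains were tightly grouped and lay below all young ones (log2 fold change -0.36, SE 0.07, adjusted p = 0.004 from edgeR), also without the marked libraries (0.04).

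ANK1 (1 OF 2) had 152, 127, 88.4, 108 and 99.2 CPM at 12 weeks and 65.2, 63.6, 98, 63.5 and 68.3 CPM at 39 weeks. Here JM13 was an exception among the old brains and reached the range of the young (log2 fold change -0.68, SE 0.15, adjusted p = 0.0075 from edgeR). ANK3, the ankyrin of the axon initial segment, had 328, 309, 209, 195 and 222 CPM at 12 weeks and 152, 164, 209, 171 and 170 CPM at 39 weeks. JM104 and JM105 were far above the other 3 young brains, of which JM113 lay just above the highest old brain and JM107 and JM109 within the range of the old (log2 fold change -0.55, SE 0.17, adjusted p = 0.034).

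The call of ANK3 ended without any of JM104, JM105, JM1, JM12, JM15 or JM18 (adjusted p from edgeR of up to 0.12, without JM104). ANK1 (2 OF 2), which fell from 53.9 ± 14.9 to 30.7 ± 5.10 CPM, lost its call without JM104, JM12 or JM15 (up to 0.078). Without the 6 marked libraries the adjusted p was 0.055 for ANK1 (1 OF 2), 0.063 for ANK1 (2 OF 2) and 0.15 for ANK3. ANK1 is also the ankyrin of red blood cells, whose markers are given with ALAS2, and the part of blood in these values was not tested.

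AK1, an adenylate kinase of muscle, blood and brain, separated the same pair of young brains from the rest, with 264, 244, 82.5, 77.4 and 77.7 CPM at 12 weeks against 76.4, 68.6, 92.3, 80.2 and 92 CPM at 39 weeks. Its call (log2 fold change -0.86, adjusted p = 0.032 from edgeR) thus came from JM104 and JM105, and ended without JM104 (0.15) and also without JM105, JM1, JM12 or JM15. The call of AK1 ended in a model of only the 10 libraries as well. BPTF, the large subunit of the chromatin remodeller NURF, was lowest among the young in JM107, with 69.6, 62.6, 31.2, 49.8 and 72 CPM at 12 weeks and 35.7, 32.7, 32.7, 25.6 and 38.2 CPM at 39 weeks. Its call (log2 fold change -0.79, adjusted p = 0.028) ended without JM104, JM105, JM113, JM1, JM12 or JM15 (up to 0.081). Neither gene was called without the 6 marked libraries (0.16 and 0.063). Another and more abundant entry of BPTF, BPTF (1 OF 2), averaged 117 CPM at 12 weeks and 100 CPM at 39 weeks. It was not called (adjusted p = 0.12 from edgeR). Of 52 chromatin regulators on the list 1 was called higher and 4 lower, against 5.81% and 6.80% of all genes, with a median of -0.01.

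**Figure D2:**
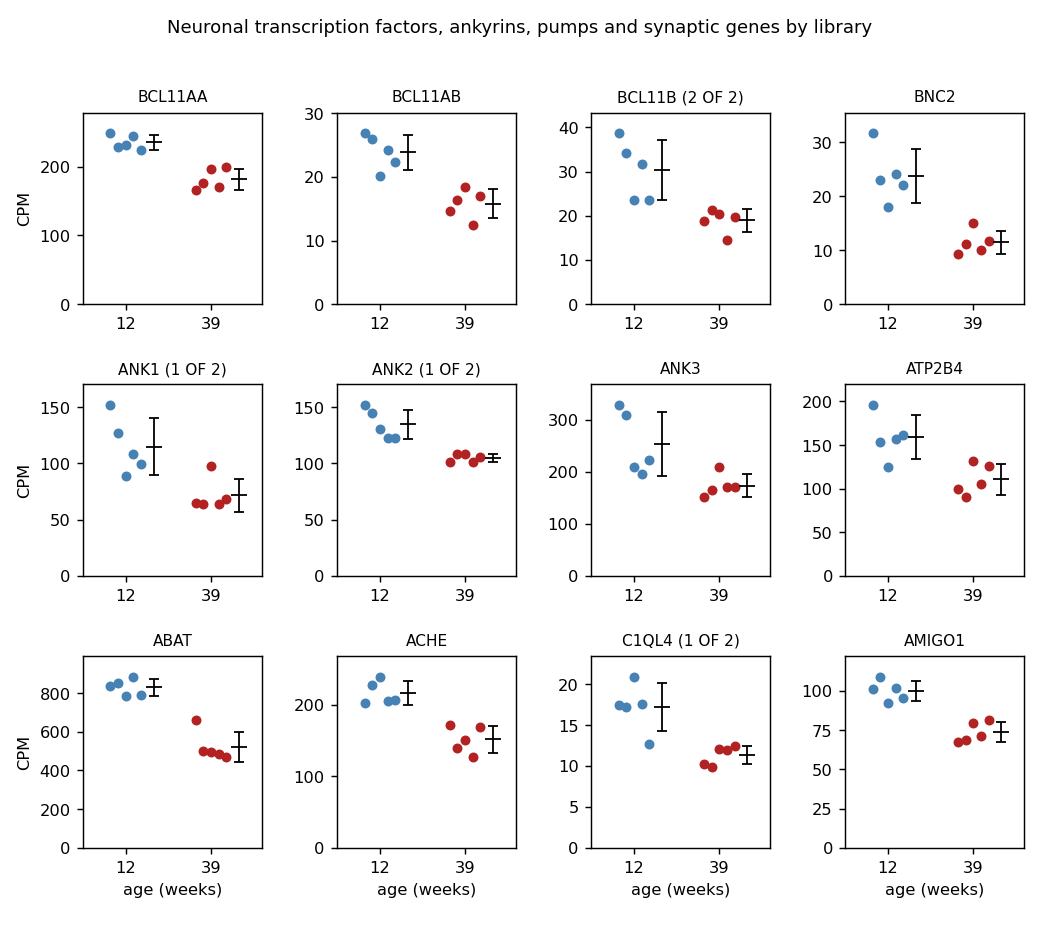
CPM (y axis, from 0) in each library of 12 weeks (blue) and 39 weeks (red) for 12 genes called lower, with the mean and SD of the 5 libraries in black. In BCL11AA, BNC2, ABAT, ACHE, ANK2 (1 OF 2) and AMIGO1 all old brains lie below all young ones, whereas in ANK3 JM107 and JM109 lie within the range of the old.

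Pumps that set ion gradients were lower or did not pass the test. Of 22 genes for P-type ion pumps, 5 were called lower and 0 higher, against 6.80% and 5.81% of all genes, with a median of -0.16. The 0 higher held for edgeR, in which ATP2A1L and ATP2A1, calcium pumps of muscle sarcoplasmic reticulum, had the largest positive changes (1.26 and 1.22, adjusted p = 0.18 and 0.17). Among the 5 were 4 of 6 plasma membrane calcium pumps (ATP2B genes), which expel calcium from neurons after firing.

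ATP1A3B, a neuronal alpha subunit of the sodium-potassium pump, had 2138, 1950, 2297, 1740 and 1757 CPM at 12 weeks and 1640, 1344, 1536, 1190 and 1622 CPM at 39 weeks. No old brain reached the lowest young one (log2 fold change -0.43, SE 0.10, adjusted p = 0.01 from edgeR). Its paralog ATP1A3A did not pass the test, with means of 685 and 586 CPM (adjusted p = 0.11).

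ATP2B3B fell from 507 ± 26.4 to 402 ± 46.9 CPM without overlap (log2 fold change -0.33, SE 0.08, adjusted p = 0.012 from edgeR). ATP2B4 had 196, 154, 125, 157 and 162 CPM at 12 weeks and 99.4, 90.4, 132, 105 and 126 CPM at 39 weeks, and ATP2B2 averaged 631 ± 91.3 and 471 ± 49.0 CPM. In these 2 genes the highest old brain overlapped the lowest young one. The calls of ATP2B4 and ATP2B2 ended without JM104, JM1 or JM12 (up to 0.069 and 0.079), and that of ATP2B2 also without JM113 or JM15. Without the 6 marked libraries ATP1A3B, ATP2B2, ATP2B3B and ATP2B4 lay at adjusted p of 0.061 to 0.15.

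ATP8A1, a flippase that keeps phosphatidylserine on the inner leaflet of membranes, fell from 182 ± 9.19 to 142 ± 9.66 CPM without overlap (adjusted p = 0.0053 from edgeR), as 1 of 14 flippases and related genes called. ATP6V1B2, a subunit of the proton pump of lysosomes and synaptic vesicles, fell from 104 ± 7.94 to 77.0 ± 9.72 CPM (adjusted p = 0.0041), as the only one of 22 V-ATPase genes called. Neither was called without the marked libraries (0.075 and 0.071). In the mitochondrial ATP synthase 0 of 18 genes were called by edgeR, and their fold changes lay between -0.17 and 0.19. Of all genes 5.81% were called higher and 6.80% lower.

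Synaptic genes were likewise lower or did not pass. Of 38 genes of the synapse and active zone 8 were called lower and 0 higher by edgeR, against 6.80% and 5.81% of all genes. A fold change below 0 was found for 33 of the 38, against 8049 of all 16484 genes, and the median was -0.23. The neuronal marker sum was lower in the old brains (log2 ratio -0.31, and -0.18 without ATP1A3B, a pump called lower). It is not a separate observation, since ATP1A3A and ATP1A3B are on the list of pumps and AMPH and BASP1 on the synaptic list. The part of neuronal content in the values of synaptic, ankyrin and pump genes was not tested. C1QL4 (1 OF 2), a secreted C1q-like protein that binds the adhesion receptor BAI3 at synapses, had 17.5, 17.2, 20.9, 17.6 and 12.7 CPM at 12 weeks and 10.3, 9.89, 12.1, 12 and 12.4 CPM at 39 weeks. The ages did not overlap, but JM113 lay close to the old brains (log2 fold change -0.59, SE 0.14, adjusted p = 0.0095 from edgeR). Its receptor BAI3 averaged 102 CPM at 12 weeks and 81.8 CPM at 39 weeks and was also called lower (adjusted p = 0.035), as was C1QL2 at 1.72 and 1.11 CPM (0.036). Both calls ended without JM104, JM105, JM12 or JM15 (up to 0.098 and 0.12), and without the marked libraries (0.087 and 0.15). That of BAI3 also ended without JM113 or JM1. That of C1QL2 also ended without JM18 and in a model of only the 10 libraries. C1QL1 (1 OF 3), C1QL3B and C1QL4 (2 OF 2) were not called (adjusted p = 0.74, 0.63 and 0.15 from edgeR). Nor were the copies of BAI1 (0.093 to 0.15) and BAI2 (0.21 and 0.61).

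AMIGO1, an adhesion protein that associates with Kv2 potassium channels, had 101, 109, 92.6, 102 and 95.7 CPM at 12 weeks and 67.7, 68.9, 79.5, 71 and 81.7 CPM at 39 weeks (log2 fold change -0.44, SE 0.10, adjusted p = 0.0099 from edgeR). BRSK2 (1 OF 2), a kinase of neuronal polarity, fell from 54.7 ± 4.06 to 43.8 ± 1.97 CPM, and ASTN2 (2 OF 3), an astrotactin that acts in the migration of neurons along glia, from 68.5 ± 2.14 to 56.6 ± 3.50 CPM. In none of these did the ages overlap. The call of ASTN2 (2 OF 3) ended without JM104 or JM12 (up to 0.074), and without the marked libraries the 4 named genes lay at 0.069 to 0.14. BSN (2 OF 2), a copy of the active zone scaffold bassoon, had the largest change of the list and was not called (149 and 64.4 CPM, adjusted p = 0.14).

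Signalling genes with small p-values included ADCY3, the adenylyl cyclase of neuronal cilia, which fell from 97.2 ± 14.3 to 73.4 ± 4.19 CPM, and ADRA2B, an adrenergic receptor, which fell from 51.3 ± 3.33 to 37.9 ± 2.54 CPM (adjusted p = 0.0096 and 0.01 from edgeR). Of 31 receptors for amines, adenosine and peptides 2 were called lower and 0 higher by edgeR, a share close to the 6.80% of all genes called lower. Among 24 genes of adenylyl cyclases and anchoring proteins, ADCY3 included, 4 were called lower and 2 higher, with a median of 0.01. Of all genes 6.80% were called lower and 5.81% higher. AGRN (agrin), a proteoglycan that clusters receptors at synapses, averaged 255 ± 45.7 and 183 ± 33.1 CPM. Its ranges overlapped through the old brain JM13, which at 222 CPM lay above the young brains JM107 (200 CPM) and JM109 (219 CPM). That call (adjusted p = 0.024) ended without JM104, JM105, JM12 or JM15 (up to 0.086) and in a model of only the 10 libraries. None of the calls of ADCY3, ADRA2B and AGRN remained without the marked libraries (0.077 to 0.085).

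Clock genes changed in both directions. Of 7 clock genes with a name, 2 were called higher and 3 lower, 5 of 7 against 12.6% of all genes. Activators were higher in the old brains and the repressors BHLHE41 and CIART lower, whereas BHLHE40 (313 and 325 CPM, adjusted p = 0.88 from edgeR) and ARNTL2 (2 OF 2) (4.86 and 8.77 CPM, 0.057) were not called. ARNTL2 had 14.2, 14.9, 12.7, 22.4 and 32.7 CPM at 12 weeks and 61.3, 52.5, 30.3, 47.7 and 34.6 CPM at 39 weeks. Only the young brain JM113 reached into the range of the old (log2 fold change 1.21, SE 0.29, adjusted p = 0.01 from edgeR). ARNTL1A had 35.5, 28.2, 29.8, 43.9 and 54.5 CPM at 12 weeks and 84.4, 74.3, 67.7, 64 and 68.4 CPM at 39 weeks. JM113 and JM109 were again highest among the young, below all old brains (log2 fold change 0.90, SE 0.20, adjusted p = 0.0069).

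Both genes named after human C1orf51, now CIART, a repressor that binds BMAL1 in mammals, were lower. C19H1ORF51 (1 OF 2) had 56.5, 42.2, 37.8, 53.1 and 61 CPM at 12 weeks and 9.96, 26.3, 17.3, 7.95 and 11.3 CPM at 39 weeks, and C1ORF51 (1 OF 2) had 37, 35.6, 31.6, 39.9 and 39.6 CPM at 12 weeks and 6.84, 12.5, 22.8, 12.4 and 20.4 CPM at 39 weeks. In neither did the ages overlap, and the log2 fold change was -1.79 (SE 0.47, adjusted p = 0.017 from edgeR) and -1.29 (SE 0.32, adjusted p = 0.013). BHLHE41 had 245, 239, 241, 223 and 188 CPM at 12 weeks and 82, 91.1, 101, 77 and 113 CPM at 39 weeks. JM113, lowest among the young in BHLHE41, was the brain highest in both ARNTL genes.

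By their means, the intermediate ages did not form 1 course for these genes. At 20 and 27 weeks BHLHE41 averaged 165 ± 79.8 and 184 ± 40.1 CPM. C19H1ORF51 (1 OF 2) averaged 48.2 ± 37 and 49.9 ± 19.6 CPM, and ARNTL2 36.3 ± 18.6 and 20.0 ± 4.22 CPM. C19H1ORF51 (1 OF 2) averaged 5.96 CPM at 5 weeks, lower than in old brains (14.6 CPM). Its paralog C1ORF51 (1 OF 2) had 31.2 CPM at 5 weeks. ARNTL1A, ARNTL2 and BHLHE41 averaged 73, 44.5 and 61.8 CPM at 5 weeks. These means lay nearer to those of 39 weeks (71.8, 45.3 and 92.9 CPM) than to those of 12 weeks (38.4, 19.4 and 227 CPM). ARNTL1A averaged 71.9 ± 27.3 CPM at 20 weeks and 50.3 ± 8.16 CPM at 27 weeks. In BHLHE41, C19H1ORF51 (1 OF 2), ARNTL2 and ARNTL1A the SD at 20 weeks exceeded those at 12 and 39 weeks, so brains of that age differed widely. Without the 6 marked libraries C19H1ORF51 (1 OF 2) was called (0.037), while ARNTL1A, ARNTL2, BHLHE41 and C1ORF51 (1 OF 2) were not (0.067 to 0.13). Time of day beyond the stated hour was not recorded per animal in the labels used here.

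Of 3 pineal markers 1 was called, against 12.6% of all genes. ASMT, the last enzyme of melatonin synthesis, had 0.168, 0.12, 2.2, 0.958 and 0.153 CPM at 12 weeks and 3.65, 2.46, 1.63, 4.29 and 1.67 CPM at 39 weeks (log2 fold change 1.99, SE 0.58, adjusted p = 0.028 from edgeR). It was almost absent from JM104, JM105 and JM113. At 5, 20 and 27 weeks ASMT averaged 2.66, 1.91 and 1.71 CPM, all above the mean of 12 weeks (0.719 CPM). Its call ended without JM104, JM105, JM113, JM1, JM12 or JM15 (up to 0.083) and in a model of only the 10 libraries. It was kept without the marked libraries (0.024). Among the young brains JM113, highest in both ARNTL genes, had little ASMT, and JM107, lowest in ARNTL2, had most. JM109 was next to highest in ASMT and both ARNTL genes, and JM105 was lowest in ASMT and ARNTL1A. The other markers, copies of the enzyme before ASMT in this synthesis, did not separate the ages. AANAT1 had 0.481 to 0.997 CPM at 12 weeks and 0.567 to 1.38 CPM at 39 weeks (adjusted p = 0.56), and AANAT (1 OF 3) had 0.240 to 0.666 CPM and 0.163 to 0.749 CPM (0.94).

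The summed CPM of ASMT and AANAT1 was 0.601 to 2.86 at 12 weeks and 2.99 to 4.87 at 39 weeks (exact permutation test, two-sided, p = 0.0079, adjusted p = 0.036). With AANAT (1 OF 3) added, a choice made after seeing the data, the sums overlapped, at 0.841 to 3.53 and 3.15 to 5.62 CPM (exact permutation test, p = 0.016). How much of the pineal organ each brain carried, and its part in the clock values, was not tested.

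The 2 genes without a name that rose most without overlap were low in the same young brains as ASMT. Nofu_gene_3_0010005 had 0, 0.0601, 0.932, 1.37 and 0.23 CPM at 12 weeks and 2.93, 8.88, 1.74, 4.5 and 1.71 CPM at 39 weeks, and Nofu_gene_3_0014643 had 0.0558, 0.0601, 0.599, 0.593 and 0.0767 CPM and 2.8, 1.83, 0.979, 1.83 and 0.75 CPM. JM107 and JM109, the young brains with most ASMT, were also highest here. At 5, 20 and 27 weeks Nofu_gene_3_0010005 averaged 1.74, 2.51 and 1.6 CPM, above its mean of 0.518 CPM at 12 weeks. Nofu_gene_3_0014643 averaged 1.34, 1.07 and 0.715 CPM at those ages, above its mean of 0.277 CPM at 12 weeks. The calls (adjusted p = 0.025 and 0.018 from edgeR) ended without JM104 (0.067 and 0.055), the former also without JM105, JM113 or JM12 (up to 0.085) and the latter without JM1 (0.054), and both without the marked libraries (0.12 and 0.056).

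The genes without a name that fell most differed from each other in level. Nofu_gene_3_0007819 was abundant and lay between 194 (JM105) and 414 CPM (JM113) at 12 weeks and had 27, 67.8, 93, 40.3 and 112 CPM at 39 weeks (log2 fold change -2.11, SE 0.35, adjusted p = 0.0016 from edgeR), a call kept in every setting run. At 5, 20 and 27 weeks it averaged 371, 166 and 168 CPM. Nofu_gene_3_0004382 fell from 2.00 ± 0.67 to 0.449 ± 0.204 CPM (log2 fold change -2.13, adjusted p = 0.015). Without the marked libraries the log2 fold change was -2.06 and the gene was not called (0.096).

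Apolipoproteins and immune genes were among the genes with a name that rose most. APOEB, an apolipoprotein E that glia secrete to carry cholesterol, had 385, 479, 395, 340 and 392 CPM at 12 weeks and 711, 1516, 774, 1402 and 739 CPM at 39 weeks. All old brains lay above the young ones, with JM12 and JM15 far above the other 3 old brains, and the call (log2 fold change 1.37, SE 0.23, adjusted p = 0.0016 from edgeR) was kept in every setting run. APOC1L, a small apolipoprotein of the same gene cluster in mammals, had 6.03, 12.5, 10.1, 16.1 and 6.79 CPM at 12 weeks and 13.3, 18.9, 23.7, 32.9 and 17.8 CPM at 39 weeks. Its ages overlapped, and the call (adjusted p = 0.034) ended without JM104, JM113, JM12 or JM15 (up to 0.11) or the marked libraries (0.14).

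In the same list of 23 genes 2 were called higher and 1 lower, in all close to the 12.6% of all genes called, with a median of 0.22. The one that fell was ABCA7, a lipid transporter, with 29.6, 23.2, 27.1, 20.7 and 23.6 CPM at 12 weeks and 12.3, 15.7, 19.8, 17.6 and 18.8 CPM at 39 weeks (adjusted p = 0.011 from edgeR, and 0.10 without the marked libraries). APOA1, the main apolipoprotein of high density lipoprotein, averaged 1173 and 1388 CPM and was not called (0.30). The sum of the plasma proteins AHSG, AMBPL and APOB was 1047 to 1903 CPM at 12 weeks and 767 to 1733 CPM at 39 weeks, with overlap.

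Of 12 genes of microglia, complement and pentraxins, 3 were called higher and 0 lower by edgeR, against 5.81% and 6.80% of all genes, with a median of 0.45. BLNK, an adaptor of immune receptor signalling, had 6.25, 6.73, 7.26, 5.65 and 11.3 CPM at 12 weeks and 8.01, 20.5, 12.5, 29.4 and 14 CPM at 39 weeks (log2 fold change 1.18, SE 0.31, adjusted p = 0.017). APCS, the serum amyloid P pentraxin, had 12.8, 16.1, 13.9, 11.5 and 20.5 CPM at 12 weeks and 26.8, 30.6, 33.3, 56.8 and 18.1 CPM at 39 weeks (log2 fold change 1.14, SE 0.28, adjusted p = 0.012). JM15 was highest among the old in both, and JM113 among the young.

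BIN2B, a membrane-bending protein of blood cells and microglia in mammals, rose from 5.14 ± 1.16 to 8.56 ± 2.36 CPM (adjusted p = 0.014 from edgeR). Without JM15 the calls of BLNK and BIN2B ended (0.069 and 0.051) and that of APCS stood at 0.049. The call of BIN2B also ended in a model of only the 10 libraries. Without the marked libraries the 3 genes lay at 0.079 to 0.15. The microglial markers AIF1, C1QB and C1QC were not called, and their sum was 20.4 to 28.3 CPM at 12 weeks and 26.5 to 59.2 CPM at 39 weeks, the highest again in JM15 (exact permutation test, two-sided, p = 0.024, adjusted p = 0.071). The log2 ratio of these sums was 0.60, and 0.36 without JM15.

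**Figure D3:**
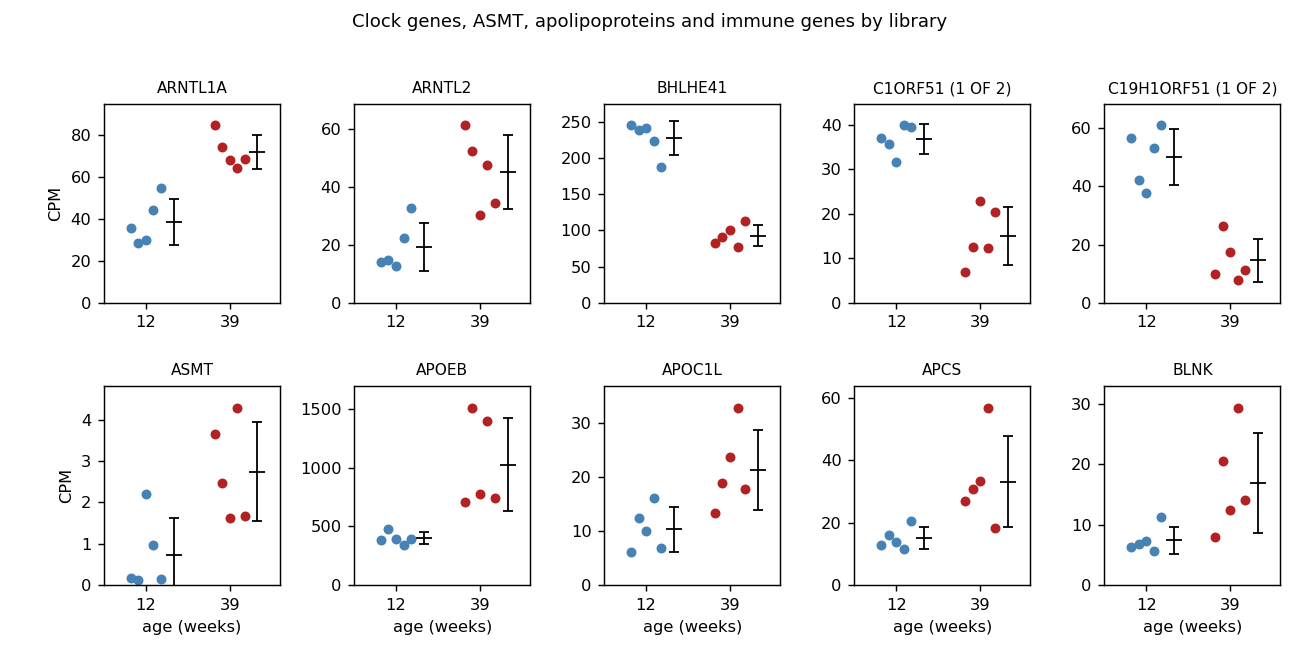
CPM (y axis, from 0) in each library of 12 weeks (blue) and 39 weeks (red) for 5 clock genes, ASMT, 2 apolipoproteins, APCS and BLNK, with the mean and SD of the 5 libraries in black. The ages separate fully in ARNTL1A, BHLHE41, both C1ORF51 genes and APOEB, and overlap in the other 5.

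Blood differed between the brains as well. ALAS2, which makes heme in red blood cells, had 21.2, 12.8, 23, 40.2 and 28.3 CPM at 12 weeks and 8.66, 6.61, 8.37, 6.12 and 20.7 CPM at 39 weeks (log2 fold change -1.31, SE 0.35, adjusted p = 0.018 from edgeR). The haemoglobin gene BA1 had 20, 14.5, 42.9, 33.5 and 31.4 CPM at 12 weeks and 13.1, 2.14, 12, 5 and 75 CPM at 39 weeks and was not called. JM18 thus carried more blood transcripts than any other old brain. The summed CPM was 27.3 to 73.6 at 12 weeks and 8.76 to 95.7 at 39 weeks (exact permutation test, two-sided, p = 0.26, adjusted p = 0.56). Leaving out JM18, a choice made after its values were seen, moved the log2 ratio of the means from -0.76 to -1.79. The p without JM18 (0.016, exact permutation test, not adjusted) was therefore not a planned test, and no conclusion is drawn from it. The call of ALAS2 ended without JM109, JM12 or JM15 (up to 0.056). Skeletal muscle markers, 5 genes with a sum of 79.0 to 136 CPM at 12 weeks and 85.9 to 171 CPM at 39 weeks, overlapped between the ages.

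A pair of transcription factors and a guanine exchange factor, with roles in vessels or stress, fell without overlap. BCL6B, a repressor of endothelial cells in mammals, had 16.6, 15.6, 20.5, 22.8 and 14.3 CPM at 12 weeks and 4.36, 3.65, 10.9, 8.87 and 9.09 CPM at 39 weeks (log2 fold change -1.27, SE 0.28, adjusted p = 0.0067 from edgeR). ARHGEF15 (1 OF 2), an exchange factor of small GTPases in endothelium and neurons, fell from 8.73 ± 0.496 to 5.21 ± 0.531 CPM (adjusted p = 0.0096). ATF5 (1 OF 2), a factor of the mitochondrial stress response, had 48, 45.2, 37, 41.3 and 30.6 CPM at 12 weeks and 18.3, 20.6, 29, 21.7 and 27.3 CPM at 39 weeks (log2 fold change -0.79, SE 0.14, adjusted p = 0.0021). ATF5 (1 OF 2) was called in every setting run, and the others not without the marked libraries (0.069 and 0.086). Of the 6 markers of meninges and vessels 0 were called by edgeR, against 12.6% of all genes.

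Of 19 genes of mitosis and cytokinesis 1 was called, against 12.6% of all genes. This was ASPM, a spindle pole protein of dividing progenitors. It had 5.86, 3.61, 2.66, 5.29 and 1.88 CPM at 12 weeks and 0.781, 0.315, 0.489, 1.04 and 1.58 CPM at 39 weeks (log2 fold change -2.13, SE 0.55, adjusted p = 0.015 from edgeR, and 0.082 without the marked libraries). ANLN (5.34 and 2.21 CPM, log2 fold change -1.25) and BORA (0.552 and 0.201 CPM, -1.34) were also lower. They were not called (adjusted p = 0.074 and 0.077 from edgeR). The list's median was 0.03, and 11 of the 19 had a fold change above 0. Of 19 genes of DNA damage and repair 1 was called, APLF, a factor of DNA end joining, which rose from 12.6 ± 1.89 to 18.3 ± 3.28 CPM (adjusted p = 0.011).

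Genes that rose by little included some of RNA handling, organelle formation and sugar chains. AKAP17A, a splicing factor that anchors protein kinase A, had 24.4, 27, 26.7, 27.4 and 22.8 CPM at 12 weeks and 38, 37.7, 29.6, 36.3 and 31.8 CPM at 39 weeks (log2 fold change 0.43, SE 0.08, adjusted p = 0.0033 from edgeR). ALKBH5, which removes N6-methyladenosine from RNA, had 27.3, 32.2, 32, 27.7 and 28.4 CPM at 12 weeks and 46.9, 45.6, 37.4, 38.1 and 35.2 CPM at 39 weeks (log2 fold change 0.46, SE 0.10, adjusted p = 0.0053). In both, the old brains lay above the young without overlap, with JM1 and JM12 highest, and both calls were kept in every setting run.

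BLOC1S3, a subunit of a complex that forms lysosome-related organelles, had 32.8, 31.9, 42.5, 33.2 and 32.6 CPM at 12 weeks and 57, 54.9, 43.5, 50.6 and 54.2 CPM at 39 weeks (log2 fold change 0.59, SE 0.13, adjusted p = 0.0069 from edgeR). JM107 and JM13 nearly met, and the other brains were far apart. B3GNT7 and B3GNT5A, which add N-acetylglucosamine to sugar chains, rose from 2.11 ± 0.377 to 3.94 ± 0.403 CPM and from 34.7 ± 3.03 to 47.3 ± 7.12 CPM (adjusted p = 0.019 and 0.0075). ABHD8 (1 OF 2), a hydrolase-like protein, rose from 84.4 ± 6.82 to 109 ± 8.71 CPM (0.0043), and BRI3 from 14.5 ± 1.09 to 19.5 ± 0.439 CPM (0.012). B3GNT7 lost its call without JM104 (0.053), and BLOC1S3, B3GNT5A and BRI3 lost theirs without the marked libraries (0.051, 0.077 and 0.079).

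Most genes of a joint list of translation and ribosome biogenesis were slightly above 0. Of its 18 genes 16 had a fold change above 0, 2 were called higher and 0 lower, and the median was 0.23. The 2 below 0 were BMS1L (-0.06) and BYSL (-0.01). Of all genes 8435 of 16484 had a fold change above 0 and 5.81% were called higher. BRIX1, which matures the large ribosomal subunit, had 24.5, 28.4, 31.4, 30.9 and 29.6 CPM at 12 weeks and 39.3, 48.4, 34.7, 41.4 and 36.1 CPM at 39 weeks, without overlap (log2 fold change 0.47, SE 0.12, adjusted p = 0.017 from edgeR). Its call ended without JM104 or JM12 (up to 0.061) or the marked libraries (0.14). The other gene called was BTF3, a partner of nascent chains, at 233 and 283 CPM (adjusted p = 0.043). It lost its call without any 1 library other than JM107 and JM13 (up to 0.14, without JM104) and without the marked libraries (0.12). The call also ended without the filter on low counts and in a model of only the 10 libraries.

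Genes of apoptosis and autophagy were called about as often as genes in general. Of 21 cell death genes 1 was called higher and 2 lower, and of 17 autophagy genes 2 higher and 1 lower, against 12.6% of all genes in either direction. BCL2L13, a BCL2 relative of the mitochondrial membrane, rose from 48.0 ± 2.03 to 65.0 ± 10.7 CPM, while APAF1, the core of the apoptosome, had 18.6, 16.5, 17.4, 16.5 and 17.9 CPM at 12 weeks and 7.88, 10.3, 13.5, 12.9 and 12.6 CPM at 39 weeks. The adjusted p was 0.0069 and 0.0075 from edgeR, and 0.069 and 0.083 without the marked libraries. ATG16L1, which places the autophagosome conjugation machinery, rose from 50.4 ± 4.82 to 64.4 ± 8.61 CPM (adjusted p = 0.017), and ATG9B, a lipid scramblase of autophagosome formation, fell from 40.6 ± 5.22 to 30.7 ± 3.37 CPM (0.015). The call of ATG16L1 ended without JM1 or JM12 (up to 0.062), that of ATG9B without JM104 (0.051), and both without the marked libraries (0.068 and 0.062).

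Of 22 genes of cilia 3 were called higher and 1 lower, and of 8 co-chaperones 1 higher and 1 lower, against 12.6% of all genes. ALMS1, a protein of the basal body, rose from 45.2 ± 5.31 to 68.7 ± 12.8 CPM (adjusted p = 0.013 from edgeR), and BBS2, a subunit of the BBSome that sorts ciliary receptors, from 63.7 ± 4.14 to 78.7 ± 7.82 CPM (0.014). BAG4, a partner of HSP70, rose from 32.5 ± 2.24 to 42.1 ± 5.23 CPM (0.02) without overlap, and its relative BAG5 fell from 17.4 ± 2.46 to 12.7 ± 2.79 CPM (0.03). The call of BBS2 ended without JM12 (0.051) and that of BAG4 without JM104, JM1 or JM12 (up to 0.064). That of BAG5 ended without JM104, JM105, JM1, JM12 or JM15 (up to 0.099) and in a model of only the 10 libraries. BCCIP, a partner of BRCA2, rose from 128 ± 8.36 to 154 ± 10.4 CPM (0.011), and ACSF3, which activates malonate in mitochondria, fell from 22.4 ± 2.35 to 16.7 ± 1.49 CPM (0.013). Without the marked libraries ALMS1, BBS2, BAG4, BAG5, BCCIP and ACSF3 lay at 0.083 to 0.17.

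**Figure D4:**
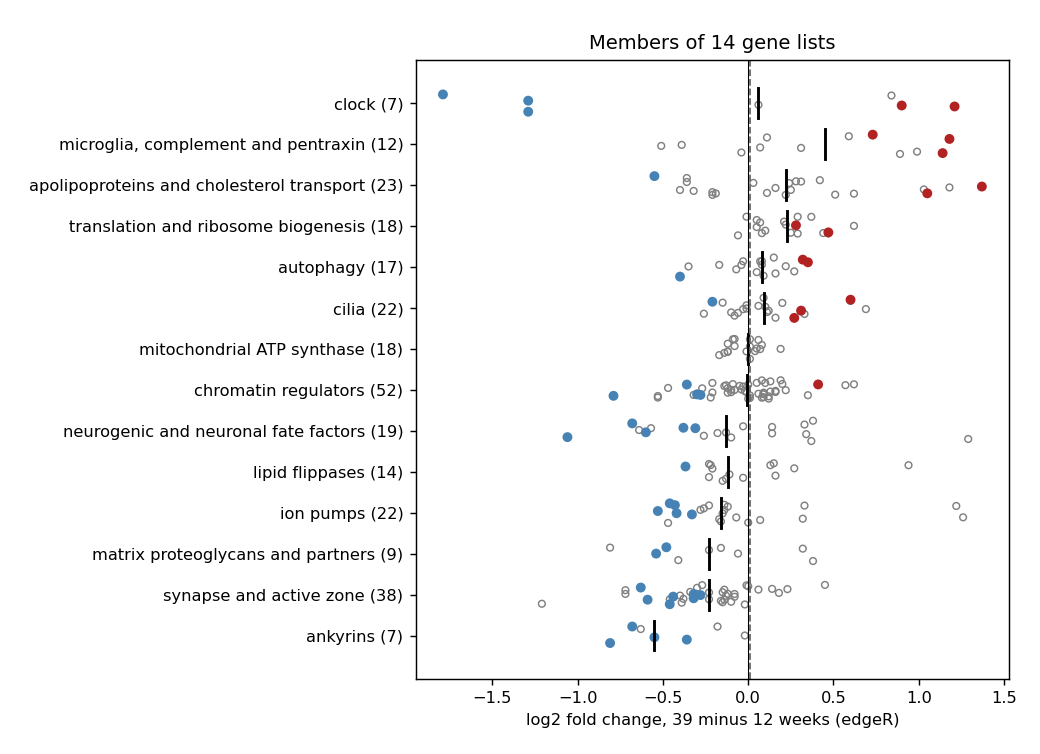
Log2 fold change at 39 minus 12 weeks (x axis) of each member of 14 gene lists, with the number of members tested in brackets. Filled points are members called higher (red) or lower (blue), open points are not called, black bars are list medians and the dashed line is the median of all genes (0.01). Ankyrins (-0.55) and synaptic genes (-0.23) lie to the left, and genes of microglia, complement and pentraxins (0.45) to the right.

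AGR2, a disulfide isomerase that the study followed up, was close to absent at both ages. It had 0.279, 0.24, 0.2, 0.41 and 0.46 CPM at 12 weeks and 0.0651, 0, 0.326, 0.125 and 0.625 CPM at 39 weeks, and was not called (adjusted p = 0.82 from edgeR). Its mean at 5 weeks was 2.17 CPM, with an SD of 3.43 CPM that exceeded the mean.

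Between 20 and 27 weeks, ages whose means do not enter the contrast, the direction of the genes called here was mixed. The libraries of these ages were part of the model that made the calls, through its filter, scaling and estimate of spread. Of the 958 genes called higher, 41.4% were higher at 27 than at 20 weeks, against 48.9% of all genes tested. Of the 1121 called lower, 53.5% were lower at 27 weeks, against 51.1% of all. These shares were not tested against each other. With the calls of a model of the 10 libraries alone, 49.7% of the higher and 55.2% of the lower genes moved the same way. The median log2 difference was -0.026 in the 958 and -0.010 in the 1121.

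**Figure D5:**
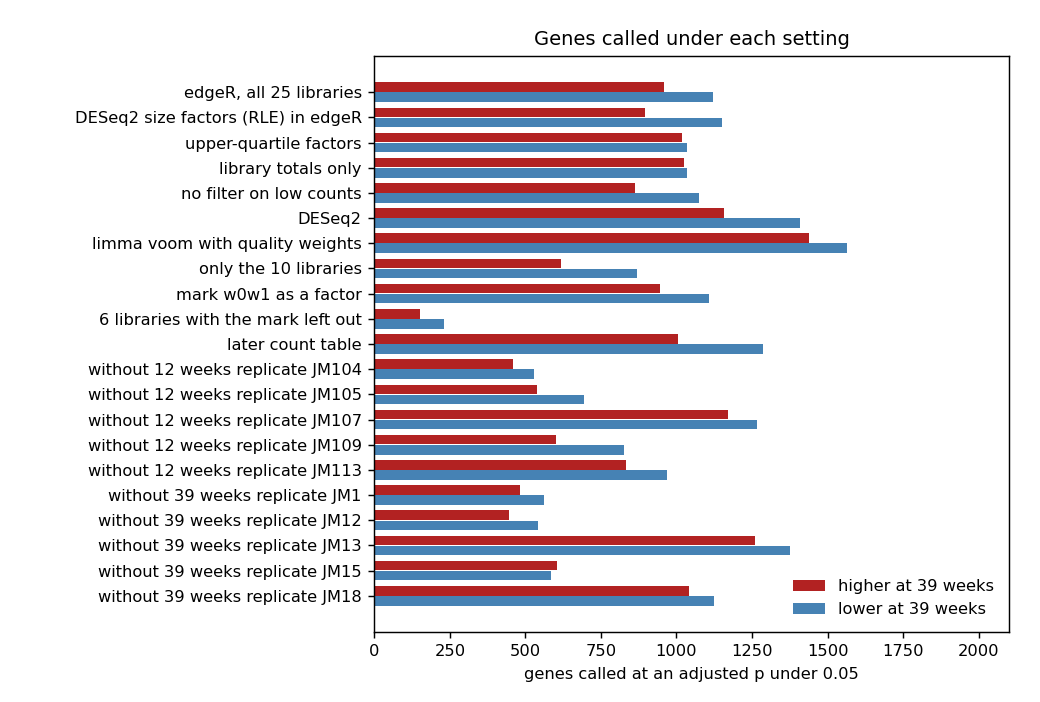
Genes called higher (red) and lower (blue) at 39 weeks (x axis, number of genes at an adjusted p under 0.05) under each setting (y axis). Bars are lowest when the 6 marked libraries are left out (151 and 231) and highest with limma voom and quality weights (1437 and 1564).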

How the data were processed

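The libraries were TruSeq RNA preparations read as single 50-base reads. The study's methods state unique mapping with Bowtie to transcript contigs. CASAVA, featureCounts 1.4.3-p1 and TopHat2 2.0.6 are listed, without a role, in the notes of the submitters on processing. The authors deposited whole-number counts per contig, used here unnormalized, and RPKM, scaled by the authors to length and library total and used only to pair names. Of 1999 names held, 1994 matched 1 row each by their shares of mean RPKM over the ages (tolerance 3e-06). A later deposited pair of count and RPKM tables served as an alternative.

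Counts were filtered with filterByExpr, scaled by TMM and tested with edgeR 4.0.16 (R 4.3.3). DESeq2 1.42.0 and limma 3.58.1 were alternatives. Marker sums were compared by exact permutation (SciPy 1.17.1), and 1 of the 9 is not reported here. On simulated data for this contrast (16484 genes) edgeR recovered 85 of 100 genes changed 2-fold and 55 of 100 changed 1.5-fold, with 4 false among 144 calls. The simulated counts were independent between genes, without effects shared within a library, and the changed genes had a mean of at least 1 CPM. Far fewer genes were changed than the 2079 called in the data, so the simulated share of false calls does not describe those calls.

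Members and gene lists were chosen with earlier results of these data known, so list counts are not independent support. Named were the 15 largest changes in each direction without overlap and with a mean of at least 1 CPM, the 10 smallest p in each direction, up to 4 members of each list, AGR2, and 2 unnamed genes in each direction. Not all of them are described. BCL11BA, BAI3, C1QL2 and the members given as not called were added after their values were seen. The reads carry no molecular identifiers, so PCR copies could not be told from separate molecules. The standard errors come from the spread between libraries of the same age, each from 1 animal. Labels do not number replicates across ages. Sequences and genome positions were not used here.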

Additional observations from a re-analysis of the deposited data

Results flagged for a closer look

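A brain was counted as apart when its gap to the nearest of the other 4 exceeded 0.71 of the range of its age. Of 166 sets of 5 libraries looked at, 10 were so marked, and chance gives about 1 in 20. In JM107 at 12 weeks BLOC1S3 had 42.5 CPM against 31.9 to 33.2 CPM, and ABHD8 (1 OF 2) 96.4 CPM against 80.0 to 83.2 CPM, both toward the level of the old brains. In JM113 at 12 weeks BLNK had 11.3 CPM against 5.65 to 7.26 CPM, in JM105 B3GNT7 had 2.76 CPM against 1.84 to 2.10 CPM, and in JM104 C1QL2 had 2.23 CPM against 1.53 to 1.68 CPM.

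At 39 weeks ABAT had 659 CPM in JM1 against 467 to 501 CPM, and ANK1 (1 OF 2) had 98.0 CPM in JM13 against 63.5 to 68.3 CPM, both toward the level of the young brains. JM18 had 20.7 CPM of ALAS2 against 6.12 to 8.66 CPM, and 95.7 CPM of the blood markers together against 8.76 to 21.7 CPM. JM15 had 59.2 CPM of the microglial markers together against 26.5 to 33.6 CPM.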

How the results depend on the processing

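None of the named genes changed direction in any setting. Of 73 called, 18 were called in each of 19 settings, and 52 lost the call without the 6 marked libraries. Removing JM104 ended 21 calls and removing JM12 20. Counts of genes higher were 618 with only the 10 libraries and 151 without the marked ones, where 231 were lower. With 1 library left out they were 444 to 1260 higher and 528 to 1375 lower. DESeq2 called 1157 and 1409, and edgeR 1006 and 1288 with the later counts. List members called were 32 higher and 68 lower, among the 78 higher and 121 lower of all 1905 genes with a name. Higher members numbered 53 with limma voom and quality weights, 19 with only the 10 libraries, and 3 without the marked ones, where 9 were lower. With 1 library left out they were 12 to 41 higher and 28 to 80 lower. Using the calls of the 10 libraries, 49.7% of higher and 55.2% of lower genes moved the same way between 20 and 27 weeks. With 1 library left out, a choice made after seeing the data, the log2 ratio of marker sums was -1.79 (without JM18) to -0.52 for blood, 1.20 to 1.83 for the pineal, 0.02 to 0.34 for muscle, -0.42 to -0.14 for plasma, -0.35 to -0.24 for neurons and 0.36 (without JM15) to 0.69 for microglia. Also chosen then, the ratio was -0.18 for neurons without ATP1A3B, -0.34 with both BSN copies added, and 1.15 for the pineal with AANAT (1 OF 3). No paired analysis was possible because the labels give the ages no shared replicate numbers. Names beyond C1QL4 and low-count genes limit what could be seen.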

Other observations

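Annexins and aquaporins were not called in either direction. Of 12 annexins, which bind membranes in the presence of calcium, 0 were called by edgeR, with a median log2 fold change of 0.13, and of 9 aquaporins 0, with a median of -0.10. Of 68 genes of Arf GTPases and vesicle coats 2 were called higher and 4 lower, with a median of 0.02. Of 38 genes of fatty acyl-CoA metabolism 3 were higher and 4 lower, with a median of -0.00. The ages did not overlap in 4 of the 38, against 8.86% of all genes. Over all genes 5.81% were called higher and 6.80% lower.

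Of 13 genes of amyloid precursor processing 1 was called lower and 11 had a fold change below 0, with a median of -0.14. Of 38 ADAM and ADAMTS proteases, which shed surface proteins and cut matrix, 1 was called higher and 3 lower, with a median of -0.11. Of all genes 12.6% were called, 5.81% higher and 6.80% lower.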
